A study of Mus musculus with 6 samples.

Results

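The genes described here are 35 genes of DNA replication, mitosis and their control, of 54532 genes measured by RNA sequencing in mouse cervical spinal cord. They were taken by name, after Ensembl identifiers had been matched to mouse symbols, and fall into 4 roles: 9 genes of replication licensing, 6 of DNA synthesis and nucleotide supply, 8 of G1 and G1-S control and 12 of mitosis. The imiquimod group was 3 C57BL/6 mice with a psoriasis-like dermatitis, brought on by 50 mg of 5% imiquimod cream laid on the shaved nape on each of 2 days. The vehicle group was 3 C57BL/6 mice given an equal weight of cream without the drug. Imiquimod is an agonist of Toll-like receptor 7. No transgene or allele is named for either group, and age is not among the labels used here. Each mouse gave 1 library of whole cervical cord, so the spread within a group is between animals, and the question put to these genes is how their transcript levels in the cord differ after treatment of the neck skin.

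Before a cell can copy its DNA, origins are licensed in G1 phase. Cdc6 and Cdt1 load the hexameric MCM helicase, built of Mcm2 to Mcm7, onto DNA, and the GINS complex later helps to switch that helicase on. Cyclin D and cyclin E kinases and the E2F transcription factors govern entry into S phase, with Cdkn1a (p21) as a brake. After S phase, cyclin A and cyclin B with Cdk1, the Aurora and Polo kinases and the spindle assembly genes carry the cell through mitosis. Most cells of the adult cord do not divide; oligodendrocyte precursors are known as its main resident dividing cells, and microglia and immune cells can divide when stimulated. MCM proteins are also known to be made in large excess over the number of active origins, and mRNA levels do not show that a cell replicated its DNA.

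The libraries held 21242415 to 23200996 recovered fragments in imiquimod cords and 18174411 to 20672881 in vehicle cords, so every imiquimod library was deeper. Levels are FPKM (fragments counted in a gene per kilobase of its exons, corrected for the size of the library), and 3 fragments in a gene of 2 kb correspond to 0.0639 to 0.0863 FPKM. Neuronal markers were present throughout, with summed levels of 584 to 671 FPKM in imiquimod and 720 to 745 FPKM in vehicle cords. Of these markers 2 of 7, Rbfox3 and Chat, were lower in imiquimod cords, where 4.59% of all genes tested were lower. Imiquimod replicate 3 stood apart in Gapdh, a gene with many near-identical copies, at 26.4 FPKM against 1.56 to 2.15 FPKM in the other 5 libraries.

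Of the 35 genes, 33 passed a filter of a mean of 0.25 FPKM over all 6 libraries and were tested with limma on log2(FPKM + 0.1), with p adjusted by the Benjamini-Hochberg method over all 18094 genes tested and a threshold of 0.05. Higher in imiquimod cords were 8 of the 33: Mcm3, Mcm5, Mcm6, Cdt1, Uhrf1, Ccnd1, Cdkn1a and Tpx2. That is 24.2% of those tested, where 7.85% of all genes tested passed in this direction. No member passed as lower, where 4.59% of all genes did; at an unadjusted p under 0.05 E2f1 was lower, and voom on recovered fragments called 0 lower and 9 higher. Over all genes 1421 were higher and 831 lower, a split of 63.1% higher. The split became 47.9% (1247 higher, 1356 lower) once the dependence of each library on length and GC had been taken out. That step also set all libraries to the same mean log2 level, and the all-gene median log2 difference moved from -0.008 to -0.056. The share of each in the changed split was not tested. With that step the members counted 5 higher and 1 lower. In the main analysis the median log2 difference was 0.26 over the 33 members and -0.008 over all genes, and 30 members had a positive difference and 3 a negative one. Without a filter 5 members were higher. The count was 3 without imiquimod replicate 1, 4 without imiquimod replicate 3, 4 without vehicle replicate 1, 5 without vehicle replicate 2 and 3 without vehicle replicate 3. In the same order, the higher calls over all 18094 genes were 869, 798, 572, 743 and 688, against 1421 with all libraries. Without imiquimod replicate 2 they were 1643, with 6 members higher. Without a filter 1080 of 31740 genes were higher. Counting all 35, every imiquimod library lay above every vehicle library for 16 members and below for 1, against 18.7% and 17.1% of all genes tested (35.9% in either direction). In whole tissue, more cells with a transcript and more transcript per cell cannot be told apart.

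**Figure D1:**
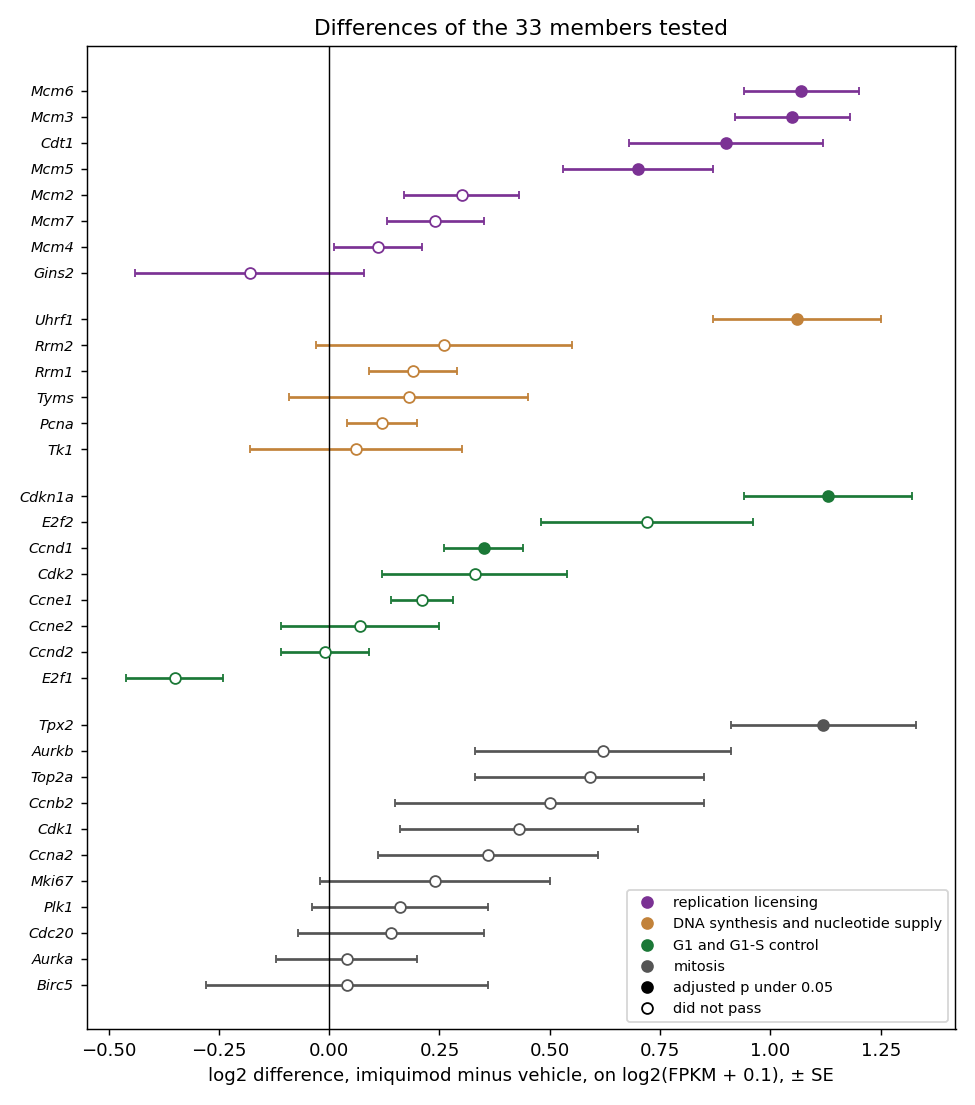
Log2 difference (imiquimod minus vehicle, x axis, on log2(FPKM + 0.1)) of the 33 members tested, down the page by role, as a point with its standard error; filled points passed at an adjusted p under 0.05. The 8 filled points lie right of 0, from 0.35 for Ccnd1 to 1.13 for Cdkn1a, and E2f1 lies farthest to the left at -0.35 without passing.

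Replication licensing held 4 of the 8 genes that rose. These 4 are 50% of the 8 licensing genes tested, against 7.85% of all genes. Mcm3, Mcm5 and Mcm6, helicase subunits, and Cdt1, the loading factor, were higher in imiquimod cords, while the subunits Mcm2, Mcm4 and Mcm7 did not pass. The median log2 difference of the 8 licensing genes tested was 0.50. The levels of the 6 MCM genes summed to 18.1, 17.7 and 18.1 FPKM in imiquimod cords, against 11.2, 13.1 and 13 FPKM in vehicle cords. The groups were well separated in this sum, with means of 18 ± 0.228 and 12.4 ± 1.04 FPKM in imiquimod and vehicle cords (SD, n = 3 each), a ratio of 1.45.

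Mcm3 (ENSMUSG00000041859, chr1:20802968-20820312, minus strand, mm10) was at 2.52, 2.44 and 2.46 FPKM in imiquimod cords, against 1.01, 1.32 and 1.13 FPKM in vehicle cords. The imiquimod libraries were nearly level with each other and all far above the vehicle libraries. Its log2 difference was 1.05 ± 0.13 (SE, adjusted p = 0.00431). Mcm6 (ENSMUSG00000026355, chr1:128331590-128359664, minus strand) stood at 4.42, 3.49 and 4.26 FPKM in imiquimod cords and 1.74, 1.73 and 2.16 FPKM in vehicle cords. The lowest imiquimod library, replicate 2, was still above the highest vehicle library, replicate 3. The log2 difference of Mcm6 was 1.07 ± 0.13 (adjusted p = 0.00506). Both genes passed under all 19 alternatives tried, with an adjusted p of 0.00122 to 0.0256 for Mcm3 and 0.000805 to 0.0307 for Mcm6.

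Mcm5 (ENSMUSG00000005410, chr8:75109569-75128439, plus strand) was at 2.11, 2.31 and 2.07 FPKM in imiquimod cords and 1.03, 1.61 and 1.28 FPKM in vehicle cords. The groups did not overlap, and the vehicle libraries were the more scattered. Its log2 difference of 0.70 ± 0.17 passed at an adjusted p of 0.0394. The call was lost without any single imiquimod library and without vehicle replicate 1 or vehicle replicate 3 (0.0811 to 0.118), in the unfiltered fit (0.0763) and with the length and GC trend removed (0.0585). Cdt1 (ENSMUSG00000006585, chr8:122568015-122573554, plus strand) stood at 2.07, 1.34 and 2.13 FPKM in imiquimod cords, against 0.792, 0.861 and 1.16 FPKM in vehicle cords. Imiquimod replicate 2 was the lowest of its group and close to vehicle replicate 3. Its log2 difference of 0.90 ± 0.22 passed at an adjusted p of 0.045. That call was lost without any 1 library except imiquimod replicate 2 (0.0698 to 0.157), with no filter (0.0857) and with the length and GC trend removed (0.0527).

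The other subunits differed less. Mcm2 was at 1.49, 1.64 and 1.53 FPKM in imiquimod cords and 1.18, 1.40 and 1.18 FPKM in vehicle cords, with no overlap (log2 difference 0.30 ± 0.13, adjusted p = 0.178). Mcm7, the licensing gene with the highest mean, was at 3.78, 3.94 and 4.23 FPKM in imiquimod cords and 2.92, 3.77 and 3.38 FPKM in vehicle cords. Its groups nearly met, at imiquimod replicate 1 and vehicle replicate 2 (0.24 ± 0.11, adjusted p = 0.203). Mcm7 shares 12.6% of its exon length with Ap4m1, Cops6 and the microRNA genes Mir25 and Mir93. Mcm4 was at 3.78, 3.90 and 3.57 FPKM in imiquimod cords, against 3.34, 3.24 and 3.86 FPKM in vehicle cords. The Mcm4 groups overlapped, with vehicle replicate 3 among the imiquimod libraries (0.11 ± 0.10, adjusted p = 0.499).

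The order of the subunits by level therefore differed between the groups. In imiquimod cords the means ran from Mcm6 (4.05 FPKM) through Mcm7 (3.98), Mcm4 (3.75), Mcm3 (2.48) and Mcm5 (2.16) to Mcm2 (1.55). The ranges of the first 3 overlapped one another, and those of Mcm3, Mcm5 and Mcm2 were separate. In vehicle cords the means ran from Mcm4 (3.48 FPKM) through Mcm7 (3.36), Mcm6 (1.88), Mcm5 (1.31) and Mcm2 (1.25) to Mcm3 (1.15). There Mcm4 and Mcm7 overlapped, Mcm6 lay apart between them and the rest, and Mcm5, Mcm2 and Mcm3 overlapped one another. Mcm3 thus ranked the fourth of 6 in imiquimod cords and last in vehicle cords, and no test of the change in order was made.

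The remaining licensing genes were low. Cdc6, the loading factor that recruits Cdt1 and the helicase to origins, was under the filter at 0.185, 0.154 and 0.187 FPKM in imiquimod cords, against 0.140, 0.143 and 0.166 FPKM in vehicle cords. These are 18 to 23 fragments in imiquimod and 13 to 17 in vehicle libraries, with overlapping groups, and the fit without a filter gave 0.14 ± 0.24 (adjusted p = 0.787). Gins2, a GINS subunit, was at 0.687, 0.382 and 0.426 FPKM in imiquimod cords and 0.524, 0.646 and 0.524 FPKM in vehicle cords. Imiquimod replicate 1 was the highest library and the other two of its group were the lowest (log2 difference -0.18 ± 0.26, adjusted p = 0.697). Gins2 shares 67.3% of its exon length with Gse1, so its values are uncertain.

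**Figure D2:**
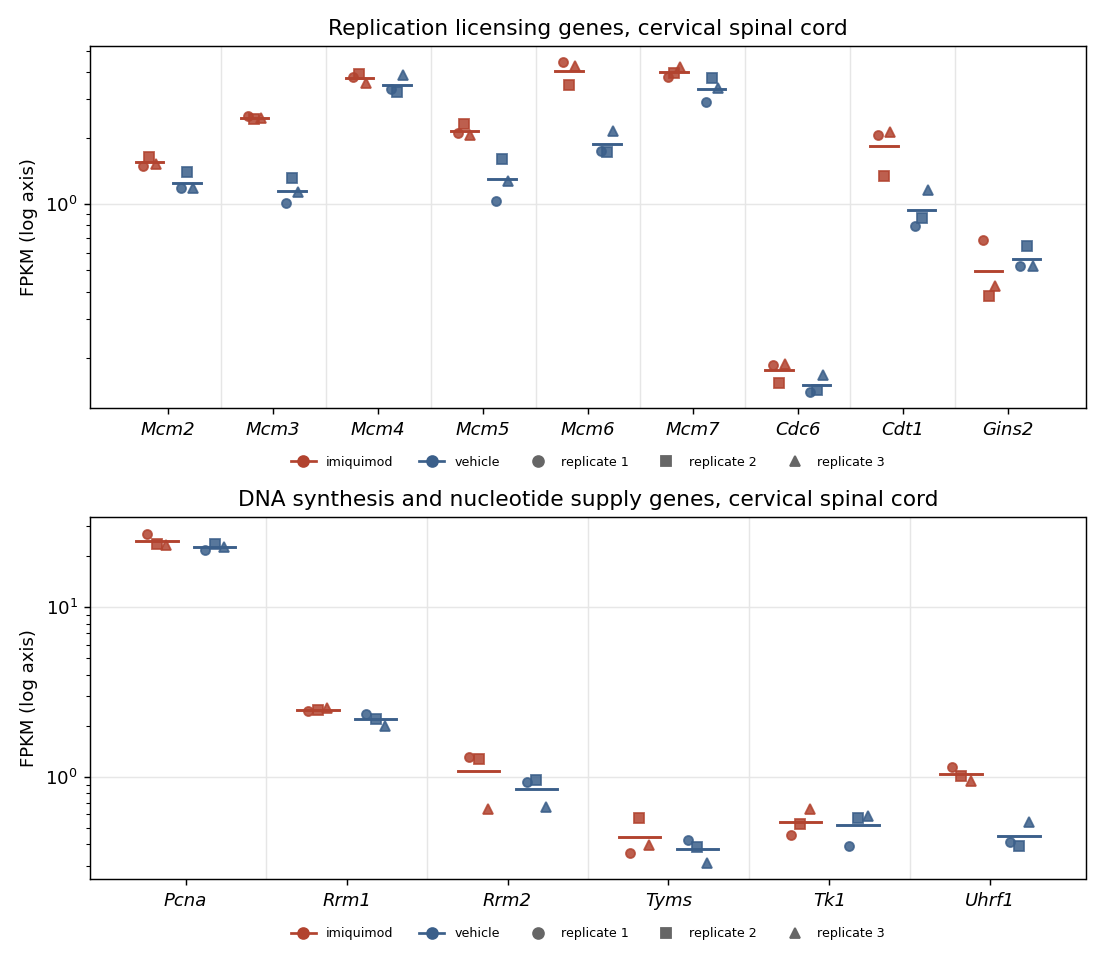
FPKM (log axis) of the licensing genes (top) and the DNA synthesis and nucleotide supply genes (bottom) in each library, imiquimod left and vehicle right of each gene, with marker shape for the replicate and a bar at the group mean. Mcm3, Mcm6 and Uhrf1 show a wide gap between the groups, while Mcm4, Gins2, Pcna, Tyms and Tk1 overlap.

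The sequences before the start sites of the genes that rose are shown because many genes of S phase are known to carry E2F sites there, and many genes of G2 and mitosis a CHR element with CCAAT boxes. RefSeq promoter windows of GRCm38.p6, the assembly also called mm10, were cut to 280 bases, 250 before and 30 after the start, and were available for 27 members. Where a gene had several starts the one farthest upstream was used. For E2F the letters searched on both strands were TTCCCGC with 3 variants, of which TTCGCGC is the first, then TTGCCGC, and TTGGCGC is the last. For CHR they were TTTGAA and for the CCAAT box CCAAT, and all were chosen with the members known. Below, 5′ to 3′ on the gene's strand, capitals mark every match of any of these on either strand, and adjoining capitals can be overlapping matches. The windows are those of the firmest licensing calls (Mcm3, Mcm6), of a subunit that did not pass (Mcm7), of Uhrf1 and of a mitotic gene with both E2F and CHR letters (Cdk1).
Mcm3, chr1:20820283-20820562, minus strand: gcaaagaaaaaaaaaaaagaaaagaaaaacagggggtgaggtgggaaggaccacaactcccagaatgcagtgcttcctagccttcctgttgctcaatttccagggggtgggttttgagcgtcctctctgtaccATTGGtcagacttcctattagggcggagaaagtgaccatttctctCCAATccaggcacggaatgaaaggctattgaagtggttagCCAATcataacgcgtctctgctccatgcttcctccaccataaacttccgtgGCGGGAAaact
Mcm6, chr1:128359676-128359955, minus strand: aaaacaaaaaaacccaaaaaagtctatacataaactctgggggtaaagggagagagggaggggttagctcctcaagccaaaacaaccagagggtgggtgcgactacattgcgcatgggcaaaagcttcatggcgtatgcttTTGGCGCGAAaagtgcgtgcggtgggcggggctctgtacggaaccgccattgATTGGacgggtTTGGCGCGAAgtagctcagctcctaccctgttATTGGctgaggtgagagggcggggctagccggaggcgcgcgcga
Mcm7, chr5:138171854-138172133, minus strand: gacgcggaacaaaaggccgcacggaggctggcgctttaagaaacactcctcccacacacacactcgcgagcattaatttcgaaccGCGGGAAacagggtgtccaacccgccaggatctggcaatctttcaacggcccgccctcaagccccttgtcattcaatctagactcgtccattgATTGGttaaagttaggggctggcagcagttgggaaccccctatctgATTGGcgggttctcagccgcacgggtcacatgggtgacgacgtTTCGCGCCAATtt
Uhrf1, chr17:56303087-56303366, plus strand: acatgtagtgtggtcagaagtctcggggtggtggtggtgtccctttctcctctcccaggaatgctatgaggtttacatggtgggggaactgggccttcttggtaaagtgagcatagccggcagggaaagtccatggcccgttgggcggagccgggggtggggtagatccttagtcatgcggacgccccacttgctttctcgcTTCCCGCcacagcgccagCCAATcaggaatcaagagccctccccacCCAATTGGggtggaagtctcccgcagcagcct
Cdk1, chr10:69352883-69353162, minus strand: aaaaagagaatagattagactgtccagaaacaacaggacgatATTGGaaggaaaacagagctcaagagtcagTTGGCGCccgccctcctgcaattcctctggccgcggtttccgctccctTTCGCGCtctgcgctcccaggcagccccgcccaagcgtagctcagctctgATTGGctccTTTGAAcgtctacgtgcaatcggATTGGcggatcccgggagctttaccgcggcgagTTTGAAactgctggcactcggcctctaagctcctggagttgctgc

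E2F letters were in 6 of 7 licensing windows (85.7%), 3 of 6 of DNA synthesis and nucleotide supply (50%), 1 of 5 of G1 and G1-S control (20%) and 3 of 9 of mitosis (33.3%), against 8.9% of all 32851 windows. CHR letters were in 5 of 9 mitosis windows (55.6%) and 1 of 7 licensing windows (14.3%), against 17.2% of all. CCAAT was in 8 of 9 mitosis and 5 of 7 licensing windows (88.9% and 71.4%), against 36.1% of all. Of the genes that rose and have a window, Mcm3, Mcm5, Mcm6, Cdt1 and Uhrf1 held E2F letters and Cdkn1a held none of the 3 kinds. E2F letters were also in Mcm7, Cdc6, Rrm1, Rrm2, Cdk2, Ccnb1, Cdk1 and Mki67, none of which was called (Cdc6 and Ccnb1 were not tested), and Mcm2 held no E2F letters. E2F letters were thus in 5 of 6 windows of genes that rose and in 8 of 21 of genes that did not pass or were not tested (83.3% and 38.1%), and within licensing in 4 of 4 and in 2 of 3. This difference was not tested, and a match is a description, not a site.

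In DNA synthesis and nucleotide supply 1 of 6 genes rose, 16.7% against 7.85% of all genes. It was Uhrf1, which brings the maintenance DNA methyltransferase to newly copied DNA. Uhrf1 (ENSMUSG00000001228, chr17:56303321-56323486, plus strand) was at 1.15, 1.01 and 0.951 FPKM in imiquimod cords, against 0.411, 0.392 and 0.540 FPKM in vehicle cords. Every imiquimod library was well above every vehicle library, on 95 to 101 fragments in imiquimod and 29 to 45 in vehicle libraries. Its log2 difference of 1.06 ± 0.19 passed at an adjusted p of 0.0174. The call was lost without imiquimod replicate 1 (0.0565), vehicle replicate 1 (0.0694) or vehicle replicate 2 (0.0627), and with a minimum mean of 1 FPKM the gene was not tested.

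Pcna, the sliding clamp of the DNA polymerases and the highest gene of this role, was at 27.1, 23.4 and 23.1 FPKM in imiquimod cords and 21.6, 23.5 and 22.6 FPKM in vehicle cords. Only imiquimod replicate 1 stood above the rest (log2 difference 0.12 ± 0.08, adjusted p = 0.383), and near-identical Pcna pseudogenes make its level uncertain. Rrm1, the large subunit of ribonucleotide reductase, was at 2.44, 2.47 and 2.56 FPKM in imiquimod cords, against 2.36, 2.20 and 1.98 FPKM in vehicle cords. The groups did not overlap but lay close together (0.19 ± 0.10, adjusted p = 0.274). Its partner Rrm2, the subunit made chiefly in S phase, ranged from 0.646 to 1.31 FPKM in imiquimod and from 0.664 to 0.955 FPKM in vehicle cords (0.26 ± 0.29, adjusted p = 0.598). Replicate 3 was the lowest library of both groups for Rrm2. Tyms, thymidylate synthase (0.18 ± 0.27, adjusted p = 0.705), and Tk1, thymidine kinase (0.06 ± 0.24, adjusted p = 0.898), overlapped between groups at levels of 0.311 to 0.648 FPKM.

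In G1 and G1-S control Cdkn1a and Ccnd1 rose, 2 of 8 genes, or 25% against 7.85% of all genes. Cdkn1a (ENSMUSG00000023067, chr17:29090976-29100727, plus strand), the cyclin-dependent kinase inhibitor p21 and a textbook p53 target, was at 33.2, 26.2 and 38.1 FPKM in imiquimod cords, against 11.4, 17.8 and 15.5 FPKM in vehicle cords. The groups were far apart and it was the highest of the 35 genes in imiquimod cords, while in vehicle cords it lay below Pcna. Its log2 difference of 1.13 ± 0.19 (adjusted p = 0.0141) was close to those of Tpx2, Mcm6, Uhrf1 and Mcm3, and their order changed with the settings. With a pseudocount of 0.01 the log2 difference was 1.13 for Cdkn1a, 1.22 for Tpx2 and 1.2 for Uhrf1. The call was lost without imiquimod replicate 1 (0.0529) or vehicle replicate 3 (0.0526). Ccnd1 (ENSMUSG00000070348, chr7:144929931-144939925, minus strand), cyclin D1, was at 7.94, 9.42 and 8.87 FPKM in imiquimod cords and 6.92, 7.19 and 6.40 FPKM in vehicle cords. All imiquimod libraries were above all vehicle libraries, by a smaller margin (0.35 ± 0.09, adjusted p = 0.0461). The Ccnd1 call was lost with no filter (0.0711), in TPM (0.0898), with the length and GC trend removed (0.11) and without any 1 library except imiquimod replicate 1 (0.0799 to 0.15), and 23.4% of its exon length is shared with LTO1.

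The E2F genes went different ways without passing. E2f1, an activating factor at S-phase entry, was at 3.86, 3.69 and 3.04 FPKM in imiquimod cords, against 4.66, 4.67 and 4.23 FPKM in vehicle cords. It was the only member with every imiquimod library below every vehicle library (log2 difference -0.35 ± 0.11, adjusted p = 0.0825), and it passed as lower with the length and GC trend removed (-0.51, adjusted p = 0.036). E2f2, another activating factor, was at 0.675, 0.696 and 0.786 FPKM in imiquimod cords and 0.301, 0.542 and 0.377 FPKM in vehicle cords. Its groups did not overlap (0.72 ± 0.24, adjusted p = 0.106), and it passed in voom on recovered fragments (0.0425) and in voom with sample quality weights (0.0495).

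Ccne1, cyclin E1, was at 7.38, 7.24 and 6.50 FPKM in imiquimod cords, against 5.94, 6.14 and 6.15 FPKM in vehicle cords. Again the groups did not overlap and the difference was small (0.21 ± 0.07, adjusted p = 0.12). Its relative Ccne2 (0.07 ± 0.18, adjusted p = 0.844; 17.4% of its exon length is shared with Ints8), cyclin D2 (Ccnd2, -0.01 ± 0.10, adjusted p = 0.958) and the kinase Cdk2 (0.33 ± 0.21, adjusted p = 0.352) overlapped between groups. Cyclin D1 and cyclin D2 thus gave different results under the same test, and the difference between them was not tested.

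**Figure D3:**
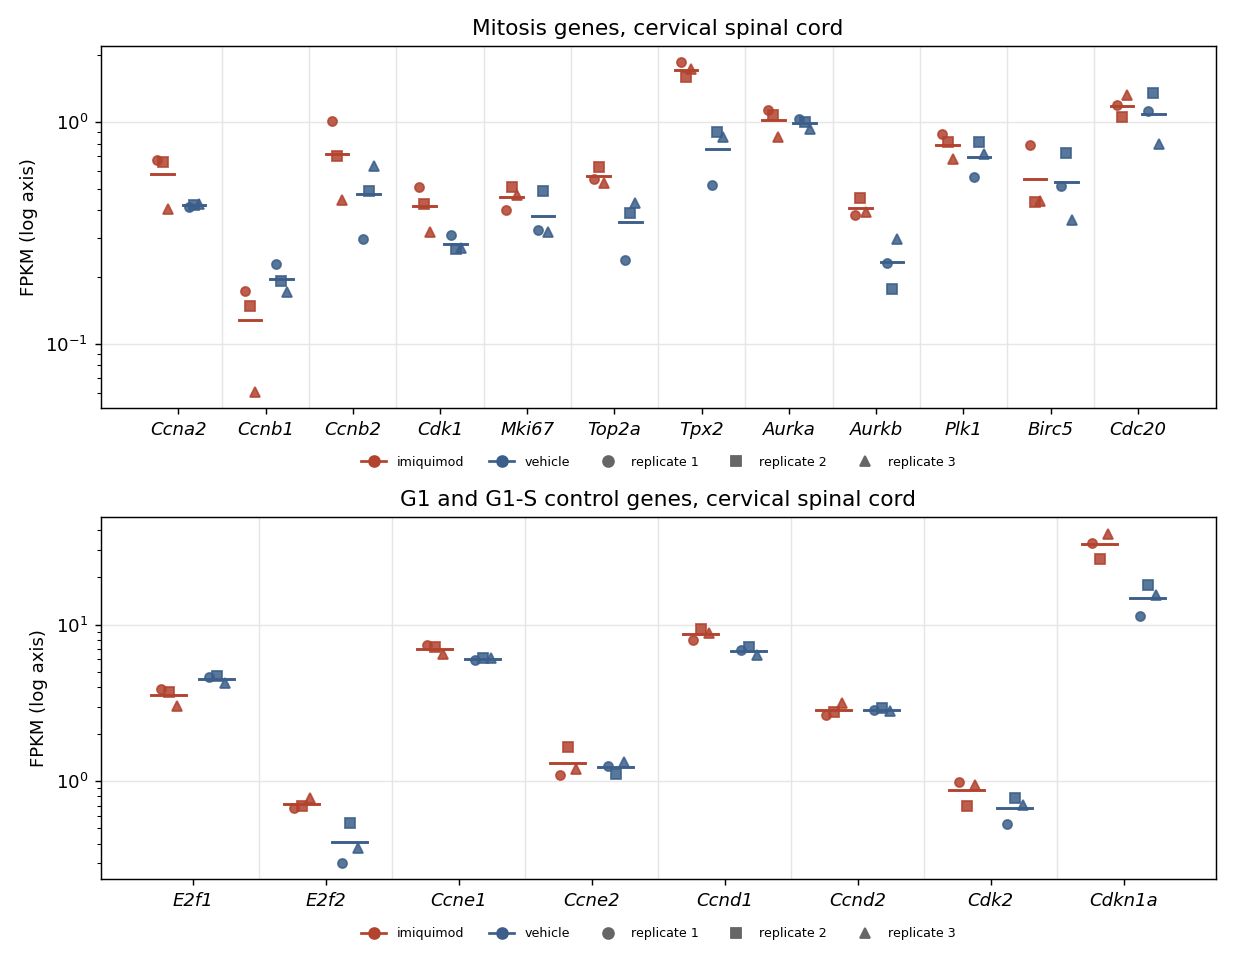
FPKM (log axis) of the G1 and G1-S control genes and of the mitosis genes in each library, imiquimod left and vehicle right of each gene, with marker shape for the replicate and a bar at the group mean. Cdkn1a and Tpx2 are widely separated, E2f1 is the gene with imiquimod libraries all below vehicle, and most mitosis genes lie under 1 FPKM.

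Among mitosis genes 1 of 11 tested rose, 9.09% against 7.85% of all genes, which is near the background. The gene was Tpx2, a spindle assembly factor that activates the Aurora A kinase. Tpx2 (ENSMUSG00000027469, chr2:152847964-152895321, plus strand) was at 1.86, 1.59 and 1.73 FPKM in imiquimod cords, against 0.520, 0.898 and 0.853 FPKM in vehicle cords. It was the highest mitosis gene by mean over all 6 libraries, with a wide gap between the groups (log2 difference 1.12 ± 0.21, adjusted p = 0.0194). In vehicle cords its mean of 0.757 FPKM lay below those of Cdc20 (1.09 FPKM) and Aurka (0.985 FPKM). The Tpx2 call was lost without imiquimod replicate 1 (0.0637), imiquimod replicate 3 (0.0629) or vehicle replicate 3 (0.0515). Aurka, the Aurora A kinase itself, was at 1.13, 1.08 and 0.859 FPKM in imiquimod cords and 1.03, 1 and 0.929 FPKM in vehicle cords. Its groups overlapped fully (0.04 ± 0.16, adjusted p = 0.894).

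Another 3 mitosis genes had groups that did not overlap and did not pass. With Tpx2, every imiquimod library lay above every vehicle library for 4 of 12 mitosis genes, against 18.7% of all genes tested. Top2a, the topoisomerase that untangles sister chromatids, was at 0.554, 0.630 and 0.530 FPKM in imiquimod cords, against 0.238, 0.389 and 0.431 FPKM in vehicle cords (0.59 ± 0.26, adjusted p = 0.196). Cdk1, the kinase that drives entry into mitosis, was at 0.511, 0.426 and 0.320 FPKM in imiquimod cords and 0.309, 0.268 and 0.269 FPKM in vehicle cords (0.43 ± 0.27, adjusted p = 0.36). The gap was wide for Top2a and narrow for Cdk1, where imiquimod replicate 3 came close to vehicle replicate 1. Aurkb, the Aurora kinase of the chromosomal passenger complex, was at 0.379, 0.455 and 0.391 FPKM in imiquimod cords, against 0.230, 0.176 and 0.295 FPKM in vehicle cords (0.62 ± 0.29, adjusted p = 0.213). Aurkb was the only member tested with a vehicle mean below the filter, on 23 to 30 fragments in imiquimod and 9 to 17 in vehicle libraries.

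The other mitosis genes overlapped between groups. Mki67, the proliferation antigen Ki-67, was at 0.400, 0.511 and 0.470 FPKM in imiquimod cords and 0.326, 0.486 and 0.320 FPKM in vehicle cords. Vehicle replicate 2 lay above 2 of the 3 imiquimod libraries (0.24 ± 0.26, adjusted p = 0.582). Cyclin B2 (Ccnb2, 0.50 ± 0.35, adjusted p = 0.398) and cyclin A2 (Ccna2, 0.36 ± 0.25, adjusted p = 0.394; 12.5% of its exon length is shared with Exosc9) had positive differences of about their standard error or somewhat more. Plk1, the Polo kinase (0.16 ± 0.20, adjusted p = 0.64), Cdc20, the activator of the anaphase-promoting complex (0.14 ± 0.21, adjusted p = 0.706), and Birc5, survivin of the passenger complex (0.04 ± 0.32, adjusted p = 0.954), differed by less than their standard error. Ccnb1, cyclin B1, was under the filter at 0.173, 0.148 and 0.0606 FPKM in imiquimod cords, against 0.228, 0.191 and 0.170 FPKM in vehicle cords. It was on 6 to 15 fragments in imiquimod and 14 to 17 in vehicle libraries, and the fit without a filter gave -0.41 ± 0.30 (adjusted p = 0.571).

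Licensing and mitosis were thus measured at different depth. Over the 9 licensing genes 965 to 2088 fragments were recovered per library, and over the 12 mitosis genes 369 to 761. Standard errors of the mitosis genes were 0.16 to 0.35 on the log2 scale, against 0.10 to 0.26 for the licensing genes. The median log2 difference was 0.50 for the 8 licensing genes tested and 0.36 for the 11 mitosis genes tested. The difference between the roles was not tested.

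Summed over all its genes, licensing stood at 21, 19.6 and 20.9 FPKM in imiquimod cords, against 12.7, 14.7 and 14.8 FPKM in vehicle cords, a ratio of means of 1.46. Mitosis summed to 9.55, 8.5 and 7.65 FPKM in imiquimod cords and 5.79, 7.21 and 6.20 FPKM in vehicle cords, a ratio of 1.34, or 1.21 without Tpx2. In both roles the groups did not overlap. Without Tpx2 the mitosis sums did overlap, at 7.7, 6.91 and 5.92 FPKM in imiquimod cords and 5.27, 6.31 and 5.35 FPKM in vehicle cords. G1 and G1-S control summed to 57.6 ± 5.11 FPKM in imiquimod and 37.5 ± 3.63 FPKM in vehicle cords (SD, n = 3 each), a ratio of 1.53 that was 1.11 without Cdkn1a. DNA synthesis and nucleotide supply summed to 30.1 ± 2.36 FPKM in imiquimod and 27.0 ± 0.977 FPKM in vehicle cords (SD, n = 3 each), a ratio of 1.12, or 1.28 without Pcna. Single genes thus set much of these last 2 sums.

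**Figure D4:**
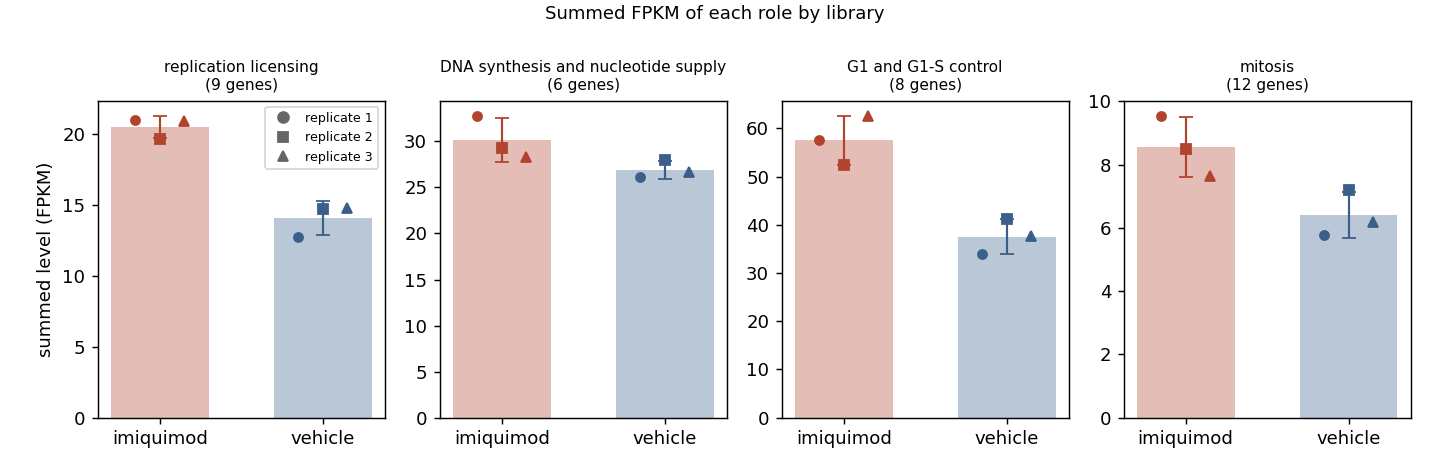
Summed FPKM of the genes of each role, imiquimod left and vehicle right, with bars at the mean, error bars of 1 SD (n = 3 each) and points for the libraries. The licensing sums are 19.6 to 21 FPKM in imiquimod and 12.7 to 14.8 FPKM in vehicle cords, and the mitosis sums 7.65 to 9.55 FPKM in imiquimod and 5.79 to 7.21 FPKM in vehicle cords.

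Within the imiquimod group the libraries ranked differently by role. Imiquimod replicate 1 was the highest of its group for 8 of 12 mitosis genes and imiquimod replicate 3 the lowest for 7. Among the 9 licensing genes imiquimod replicate 2 was the lowest of its group for 5, and each of the 3 libraries was the highest for 3. Vehicle replicate 1 was the lowest of its group for 6 of the 9 licensing genes and the highest for 0.

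Markers of other cells moved between the groups as well. The counts of calls given here stand beside 7.85% higher and 4.59% lower over all genes tested, and in lists this short 1 call is a large share. Monocyte markers summed to 61.2, 22.0 and 79.2 FPKM in imiquimod cords, against 1.81, 9.81 and 3.51 FPKM in vehicle cords, and 4 of 6 rose. Of these, Ccr2 had a vehicle mean of 0.132 FPKM and so was tested through the imiquimod libraries. T and NK cell markers summed to 43.5, 22.5 and 49.9 FPKM in imiquimod cords and 3.29, 4.63 and 3.75 FPKM in vehicle cords, and 6 of the 7 tested, of 12, rose. Trbc1, Klrb1c and Ncr1, which are 3 of those 6, had vehicle means of 0.0735, 0.0237 and 0.0249 FPKM and were likewise tested through the imiquimod libraries, so the count of 6 is no support for a change of the list; Cd3g, Klrb1c and Ncr1 were listed at 0 in at least 1 library. Imiquimod replicate 2 was the lowest of its group in both sums. Of the 8 genes that rose it was also the lowest for Mcm3 (by a narrow margin), Mcm6, Cdt1, Cdkn1a and Tpx2, and not for Mcm5, Uhrf1 and Ccnd1. Over all 35 members imiquimod replicate 2 was the lowest of its group for 10, imiquimod replicate 1 for 11 and imiquimod replicate 3 for 14. Endothelial markers summed to 129 to 139 FPKM in imiquimod and 66.9 to 68.9 FPKM in vehicle cords, with 4 of 6 higher. The other members, Flt1 (-0.49 ± 0.20, adjusted p = 0.164) and Tek (0.19 ± 0.14, adjusted p = 0.402), did not pass. Cldn5 made up much of both sums, with means of 92.2 FPKM in imiquimod and 41.7 FPKM in vehicle cords. Microglial markers summed to 121 to 157 FPKM in imiquimod and 98.4 to 111 FPKM in vehicle cords, with 2 of 8 higher (Tmem119 and Aif1) and a median log2 difference of 0.09. P2ry12 (-0.75 ± 0.21, adjusted p = 0.0647) and Siglech (-1.32 ± 0.50, adjusted p = 0.139) had every imiquimod library below every vehicle library without passing, and voom called 1 of the 8 lower. Markers of oligodendrocyte precursors summed to 74.9 to 84.6 FPKM in imiquimod and 94.4 to 95.2 FPKM in vehicle cords, with 3 of 8 lower (Gpr17, Neu4 and Lhfpl3) while Pdgfra and Cspg4 did not pass. B and plasma cell markers summed to 23.9 to 26.2 FPKM in imiquimod and 31.3 to 34.9 FPKM in vehicle cords, with 1 of 4 tested lower (Ighm). Ighm made up most of both sums, with means of 23.4 FPKM in imiquimod and 31.8 FPKM in vehicle cords. Jchain went the other way without passing (1.04 ± 0.27, adjusted p = 0.0536), and voom called 1 of this list higher and 1 lower. Sums of astrocyte, ependymal, neutrophil and red blood cell markers overlapped between the groups. Vehicle replicate 1 was the highest in red blood cell markers (491 FPKM) and vehicle replicate 2 in neutrophil markers (81.6 FPKM). Single genes of these lists still passed. Of 6 astrocyte markers 1 was higher (Aldh1l1) and 2 were lower (Slc1a2 and Gja1). Of 5 ependymal markers 1 was higher (Rarres2) and 1 lower (Ccdc153). Of 6 neutrophil markers tested 1 was higher (Csf3r), and no red blood cell marker passed. The part of any of these cells in the differences of the 35 genes was not tested.

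In the wider pathway the calls at an adjusted p under 0.05 were near the background of 7.85% higher and 4.59% lower over all genes tested. Of 19 further licensing and origin firing genes 15 were tested and 1 rose, Gmnn, which encodes geminin, the inhibitor of Cdt1; their median log2 difference was -0.03. Gmnn was at 5.26, 4.61 and 4.54 FPKM in imiquimod cords, against 3.59, 3.77 and 3.42 FPKM in vehicle cords (0.41 ± 0.09, adjusted p = 0.0313). The Gmnn call was lost in the unfiltered fit (0.0516), and voom called 0 genes of this list higher. Every imiquimod library lay above every vehicle library for both Gmnn and Cdt1, the target of geminin. Of 27 further replication fork and nucleotide genes 25 were tested, 2 rose and 1 fell, with a median of 0.11. Those that rose were Lig1, the ligase that joins Okazaki fragments (0.44 ± 0.09, adjusted p = 0.0237), and Rfc3, a subunit of the clamp loader (0.50 ± 0.11, adjusted p = 0.034). The gene that fell was Rrm2b, the p53-inducible ribonucleotide reductase subunit (-0.33 ± 0.08, adjusted p = 0.0479). In the unfiltered fit the calls of Rfc3 (0.0703) and Rrm2b (0.0747) were lost and that of Lig1 (0.0397) was kept.

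Of 23 further G1-S control genes 20 were tested and 1 rose, E2f4, an E2F factor known mostly as a repressor (0.26 ± 0.07, adjusted p = 0.0484), with a median of -0.07. The E2f4 call was lost in the unfiltered fit (0.068). Of 45 further mitosis genes 29 were tested and 1 rose, with a median of 0.08. It was Cdca5 (sororin), which holds sister chromatids together, at 0.478, 0.609 and 0.420 FPKM in imiquimod cords, against 0.159, 0.135 and 0.0961 FPKM in vehicle cords (1.39 ± 0.31, adjusted p = 0.0335). Its vehicle mean lay below the filter, so it was tested through the imiquimod libraries. The Cdca5 call was kept in the unfiltered fit (0.0407). Over these 4 further lists 5 of 89 genes tested rose and 1 fell, and voom called 7 higher and 1 lower. At an unadjusted p under 0.05 there were 16 higher and 5 lower, and the all-gene share at that p was not computed. Every imiquimod library lay above every vehicle library for 4 of 19 licensing, 10 of 27 fork, 7 of 23 G1-S and 10 of 45 mitosis genes. The reverse held for 3, 2, 3 and 4 of them. Over all genes tested the shares were 18.7% above and 17.1% below.

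Of 18 p53 target genes other than Cdkn1a, 17 were tested, 5 rose and 1 fell, 29.4% and 5.88% against 7.85% and 4.59% of all genes, with a median log2 difference of 0.22. Voom called 3 higher and 1 lower, and in the unfiltered fit Mdm2, Plk2, Bax and Zmat3 passed while Fas (0.0542) and Sesn2 (0.069) did not. Among those that rose were Mdm2, the ubiquitin ligase of p53 (0.35 ± 0.06, adjusted p = 0.0128), Plk2, a Polo-like kinase (0.53 ± 0.09, adjusted p = 0.0154), and Bax, a pore former of apoptosis (0.40 ± 0.08, adjusted p = 0.0205). Zmat3, an RNA-binding p53 target, fell (-0.36 ± 0.07, adjusted p = 0.025). These differences were smaller than the log2 difference of 1.13 for Cdkn1a. Over the 5 further lists the 10 genes that rose became 5 in the unfiltered fit, and 4 without imiquimod replicate 1, 2 without imiquimod replicate 3, 0 without vehicle replicate 1, 1 without vehicle replicate 2 and 2 without vehicle replicate 3. The 2 that fell became 0 in TPM, without imiquimod replicate 3 and without any single vehicle library. Calls over all genes in the same direction were also fewer under each of these settings.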

How the data were processed

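The deposited files hold 1 FPKM value per gene and library, as the authors scaled it; the unit was inferred from the values. HISAT2 2.0.5, featureCounts 1.5.0-p3, DESeq2 1.16.1 and mm10 are named in the submitters' processing notes; annotation release and strand setting were not given in the sources used here. Symbols were matched for 54409 of 54532 identifiers. FPKM times GENCODE M21 exon length gave whole fragments within 0.05 for 97.4% to 97.6% of values under 1000 fragments, so fragments were recovered, and the scaling followed median-of-ratios factors.

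limma 3.58.1 (R 4.3.3, mean-variance trend) compared imiquimod with vehicle libraries on log2(FPKM + 0.1), which understates changes of low genes. The procedure was tested on simulated data in which every gene was given the same scatter beyond counting error. That run gives no error rate or power for the genes reported here. Python 3.11.15, pandas 2.3.3, NumPy 2.4.6 and matplotlib 3.10.9 did the rest. Alternatives covered pseudocount, filter, scaling, voom on recovered fragments, length and GC trends, a replicate block and leaving out each library. Removal of the length and GC trends also set all libraries to the same mean log2 level. Fragment numbers limit precision by counting error only.

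The 35 members and all lists were chosen with earlier results of these data known. Members were named in full if they passed, had groups that did not overlap or had the highest mean of their role; of other pathway lists, up to 3 called genes in each direction with the smallest p. Marker lists of 12 cell types were summed per library; that of oligodendrocytes is not reported here.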

Additional observations from a re-analysis of the deposited data

How the results depend on the processing

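Mcm3 and Mcm6 passed under every alternative run. Recomputed singly under the alternatives were the 18 members named by rule, and none changed sign. All of them except Pcna had groups that did not overlap. For such genes, leaving out a library or changing the pseudocount or the filter cannot reverse the sign. The kept signs are therefore no support, and members not named by rule were not recomputed singly. With no filter 5 members were higher (8 in the main analysis), among them 2 of licensing (4) and 1 of G1-S control (2), with 5 higher and 1 lower in the further pathway and p53 lists together (10 and 2), and 508 genes of all were lower (831). With the length and GC trend removed 5 members were higher, 2 of licensing and 1 of G1-S control, 1 was lower (E2f1, of G1-S control), and 1356 genes of all were lower. In TPM 1 gene of G1-S control was higher and 0 of the further lists were lower, and with a minimum mean of 1 FPKM 0 synthesis genes were higher because Uhrf1 was not tested.

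Replicate numbers did not pair the samples: same-numbered libraries deviated together with correlations of 0.0156, -0.0688 and -0.0345, and not every library correlated best with its own number. With a replicate block 3 members were higher, 2 of licensing, 0 of synthesis, 1 of G1-S control and 0 of mitosis, with 1 higher and 0 lower in the further lists and 823 genes of all higher and 344 lower. With the block and the length and GC trend removed 3 members were higher (2, 0, 1 and 0 by role), 1 was lower (G1-S control), the further lists held 0 higher and 0 lower, and 803 genes of all were higher.

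Leaving out 1 library gave 3 to 6 members higher, with 2 to 3 of licensing, 0 to 1 of synthesis, 0 to 1 of G1-S control and 0 to 1 of mitosis, 0 to 9 higher and 0 to 3 lower in the further lists, and 572 to 1643 higher and 143 to 1213 lower genes of all. Where calls were lost the cause was not tested beyond these settings. Role sums kept their direction in all 8 alternatives run. In every role the sums of the groups did not overlap, so leaving out a library could not have reversed the direction. Fragments per library were 369 to 761 over the mitosis genes and 965 to 2088 over the licensing genes; the effect of this on the calls was not tested.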
